A study of Mus musculus with 6 samples.

Results

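RNA of 50 genes for DNA replication was compared between CD27SP NK cells with and without Myc. Their products license replication origins, open the helix, and build and join the new strands at the fork. The genes were chosen by name, as subunits of the ORC, MCM and GINS complexes, the polymerases, RFC, RPA and PCNA and the factors that finish Okazaki fragments, out of 25690 gene symbols in the tables. All 50 of 50 members had enough counts for a test, as did 15474 symbols in all. The cells are the NK1.1+CD27+CD11b- subset, an early stage of NK cells, isolated by sorting of BM cells. There were 3 RNA-seq libraries from Ncr1cre Myc wt/wt mice and 3 from Ncr1cre Myc fl/fl mice, numbered 1, 2 and 4 in both genotypes. Both genotypes carry the Ncr1cre allele, in which Cre is expressed with the Ncr1 gene for the receptor NKp46, so Myc is removed in the fl/fl mice only once a cell has begun to express that receptor, and the cells of wt/wt mice also express Cre. The mice were on a C57BL/6 background, matched for sex and age by the study's methods, and the labels name no treatment. The labels do not say whether each library is 1 mouse, so p-values measure the spread between these libraries, which may in part be technical. The genotypes are shortened to wt/wt and fl/fl, and where 3 values are given they are those of replicates 1, 2 and 4 in this order.

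DNA replication begins at origins that are bound by ORC, the origin recognition complex. In G1 phase Cdc6 and Cdt1 bring the ring-shaped MCM2-7 helicase to ORC, and geminin, the product of Gmnn, blocks Cdt1 after S phase has begun so that an origin is used once in a cycle. In S phase Cdc45 and GINS join the ring to form the active helicase, RPA coats the single strands, polymerase alpha-primase lays down primers, the RFC loader places the PCNA clamp, and polymerases epsilon and delta extend the leading and lagging strands. Most of these genes are transcribed more in cycling than in resting cells, and E2F factors are known for driving many of them at the G1/S transition. CD27SP cells are the NK cell stage known for active proliferation in the BM.

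The promoters of 3 members are printed to show which letters genes with a lower level in fl/fl cells did and did not share near their start. These are the members with the smallest p-values among those below an adjusted p of 0.05 whose RefSeq start lay within 50 bases of the 5′ end of the GENCODE gene and whose shown stretch held at most 10 bases of an annotated exon. Each line gives the 150 bases before the RefSeq start in GRCm38.p6, all on the minus strand of their chromosome and written 5′ to 3′, and capitals mark the letters TTTGGCGC or TTTCGCGC, which match the E2F motif, and CCAAT, each on either strand.
Pola1 (chrX:93632156-93632305): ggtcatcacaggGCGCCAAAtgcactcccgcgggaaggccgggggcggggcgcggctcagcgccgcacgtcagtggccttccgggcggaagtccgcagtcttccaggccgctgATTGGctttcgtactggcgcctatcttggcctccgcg
Mcm6 (chr1:128359706-128359855): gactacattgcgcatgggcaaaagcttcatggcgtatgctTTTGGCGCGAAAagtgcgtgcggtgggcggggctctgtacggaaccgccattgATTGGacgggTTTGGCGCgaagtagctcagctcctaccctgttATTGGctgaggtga
Mcm10 (chr2:5012792-5012941): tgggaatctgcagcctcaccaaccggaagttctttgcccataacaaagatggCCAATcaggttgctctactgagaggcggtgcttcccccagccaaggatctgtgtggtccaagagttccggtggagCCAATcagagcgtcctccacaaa
In Pola1 an E2F match began 138 bases before the start and a CCAAT match 37 bases before it. In Mcm6 E2F matches began 110, 106 and 47 bases before the start, the first 2 overlapping each other, and CCAAT matches 57 and 14 bases before it. Mcm10 had no E2F match in its window and had CCAAT matches 98 and 23 bases before the start, and a further one 31 bases after it.

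RefSeq windows of 250 bases before to 50 bases after a start were at hand for 41 of the 50 members. An E2F match on either strand lay in the windows of 11 of these 41 (26.8%), against 0.929% of all 27025 symbols with a window and 1.69% of those that were also tested here. Of the 5 MCM2-7 genes with a window, 4 had one, and the other 7 genes were Orc1, Cdt1, Mcm8, Pola1, Pole2, Rfc3 and Lig1. The shorter E2F-like word GGCGGGAA was in 6 of the 41 (14.6%) and in 4.40% of the tested symbols, CCAAT in 25 (61.0%) and 42.9%, and the E-box CACGTG, the word bound by Myc and by other factors of its class, in 7 (17.1%) and 11.0%. The E-box genes were Orc4, Mcm8, Pola2, Rfc1, Rpa1, Fen1 and Lig1. These matches describe letters in a window and say nothing of a factor being bound there.

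Depth came to 8101219 estimated counts in wt/wt library 1 and to between 54.6 and 65.0 Mio in the other 5, so the wt/wt library 1 carries most of the counting error. Even there, the member with the fewest counts had 65, and the median member 600. Myc, the targeted gene, had 200.5, 183 and 164 CPM in the wt/wt libraries and 61.5, 64.6 and 76.5 CPM in the fl/fl libraries. It was lower in all 3 fl/fl libraries (log2 fold change −1.44, standard error 0.15, adjusted p = 0.00189, edgeR). The fl/fl libraries kept 37.0% of the wt/wt level, and whether cells with intact Myc were among those sorted was not tested. NK cell markers were abundant in both genotypes, with Nkg7 at 7752 ± 1077 and 9875 ± 807 TPM and Tyrobp at 4547 ± 181 and 4898 ± 358 TPM (mean ± SD, n = 3, wt/wt and fl/fl), and the list median was 0.11 on the log2 scale. Gzmb, the granzyme B gene, was the NK marker that passed an adjusted p of 0.05, with 212, 186 and 166 CPM in the wt/wt libraries and 472, 358 and 1488 CPM in the fl/fl libraries (log2 fold change 1.73, standard error 0.37, adjusted p = 0.0216, edgeR). Its value rested in part on fl/fl library 4, without which the log2 fold change was 1.16, and DESeq2 did not call it (adjusted p = 0.0589). DESeq2 placed Gzma, the granzyme A gene, lower and Il2rb, a receptor chain for IL-2 and IL-15, higher (adjusted p = 0.0103 and 0.0197), with log2 fold changes of −0.64 and 0.47 in edgeR, where neither passed (adjusted p = 0.0564 and 0.0852). That library also stood apart for Prf1, with 846, 891 and 1988 CPM, and Klrg1, with 7.93, 7.85 and 37.1 CPM, in the fl/fl libraries. Ltb and Cxcr3 had the highest mean TPM over the 6 libraries of the immature NK list (median 0.19) and Irf8 and Zeb2 of the mature one (median −0.06). Of the 9 immature NK genes 2 rose past the study's limit in edgeR, Kit and Tnfrsf9, with log2 fold changes of 1.26 and 1.62. Of the 8 mature NK genes 1 rose past it, Irf8 (1.28), and 2 fell past it, Cma1 (−1.84) and S1pr5 (−1.18). S1pr5 had overlapping genotypes and an adjusted p of 0.0622 without the block (edgeR). Gzmb, Gzma, Il2rb, Prf1, Klrg1, Kit, Tnfrsf9, Cma1 and S1pr5 are named after their values were seen, and the part of these markers in the results on replication genes was not tested.

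Markers of other BM cells were higher in the fl/fl libraries, and their part in the differences of the replication genes was not tested. All 8 basophil and mast cell markers rose, from a summed level of 15.1 to 18.5 CPM in the wt/wt libraries to 122 to 334 CPM in the fl/fl libraries. Prss34 and Mcpt8 led this list by TPM. All 11 tested neutrophil and granulocyte-monocyte progenitor markers were higher, 8 at an adjusted p below 0.05 and 6 without the block. They were led by Mpo and Elane (95.6 to 153 and 582 to 934 CPM summed). All 8 tested monocyte and dendritic cell markers were higher, 7 at an adjusted p below 0.05 and 5 without the block. Their sum (1678 to 1880.45 and 2121 to 2421 CPM) was mostly Ccr2, the marker that did not pass (log2 fold change 0.25), and Ly6c2 was next by TPM. Of 10 erythroid markers 9 rose, with Car2 and Hbb-bs at the highest TPM (596 to 717 and 1051 to 1134 CPM summed). No B or T cell marker passed an adjusted p of 0.05 in edgeR, while 4 were higher and 1 lower at an unadjusted p below 0.05, and DESeq2 placed 1, Cd79b, below an adjusted p of 0.05. Their most abundant genes were Ighm and Cd79b, and Cd3g and Cd3d. The summed B cell markers were at 1500.2 CPM in wt/wt library 1 and between 577 and 757 CPM in the other 5, nearly all of it Ighm. Of the B cell list, Pax5, Vpreb1 and Igll1 had at most 7 counts in any wt/wt library and 43 in any fl/fl library. Fcgr1 of the monocyte list had 0 counts in every wt/wt library.

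Replication genes were lower in fl/fl CD27SP cells as a group. Levels are given as CPM, counts per Mio after TMM scaling, and the genotypes were compared by edgeR's quasi-likelihood test over all 15474 genes with the replicate number as a block. Of the 50 members 49 had a negative log2 fold change, with a median of −0.49 against 0.01 for all genes tested, and the range ran from −0.95 for Gins1 to 0.19 for Pold4. At an adjusted p below 0.05, 14 members were lower and 0 were higher, whereas 3.38% of all tested genes were lower and 4.45% higher at that limit. These 14 genes, Orc6, Cdc6, Gmnn, Mcm6, Mcm7, Mcm10, Cdc45, Pola1, Prim1, Rfc4, Rfc5, Pcna, Lig1 and Rnaseh2b, kept between 55.0% and 69.7% of their wt/wt level. The study's stricter limit was an adjusted p below 0.01 and a log2 change of 0.5 or more in size. The study required it in edgeR, DESeq2 and limma-trend alike. By the largest adjusted p of the 3 methods, 0 members and 0.504% of all tested genes were lower past it. In edgeR alone 0 members passed, against 0.872% of all tested genes that were lower. At an unadjusted p below 0.05 in edgeR, 31 members were lower, against 10.2% of all tested genes. DESeq2 called more genes throughout and placed 16 members and 3.47% of all tested genes lower past the stricter limit, and limma-trend 0 members and 0.504%. Every fl/fl library was below every wt/wt library for 40 of the 50, compared with 15.1% of all tested genes.

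The number of members past an adjusted p of 0.05 changed with the libraries in the fit. With both libraries of replicate 1 left out, 1 member passed, Pola1, a share near the 1.69% of all tested genes that were lower in that fit. With both of replicate 2 left out 3 passed, against 1.89% of all tested genes, and with both of replicate 4 left out 14, against 2.61%. The fit without the block had 20, against 4.47%, and leaving out 1 library from it left 4, 7 and 12 without fl/fl libraries 1, 2 and 4 and 14, 8 and 15 without wt/wt libraries 1, 2 and 4, while between 1.59% and 3.87% of all tested genes were lower in these 6 fits. Offsets from the effective transcript lengths left 4, against 1.8%. In each of the 19 alternatives 48 or 49 of the 50 were lower, and the median lay between −0.54 and −0.35. Without replicate 1 the log2 fold change was over 1.5 times smaller, or of the other sign, for 16 members, of which 0 were among the 14. Rfc4, lower at an adjusted p below 0.05 in 18 of the 19, and Prim1, in 17, were the members that passed most often. E2F matches were in the windows of 4 of the 12 members with a window that passed an adjusted p of 0.05 and of 7 of the other 29, and E-boxes in 1 of 12 and 6 of 29.

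**Figure D1:**
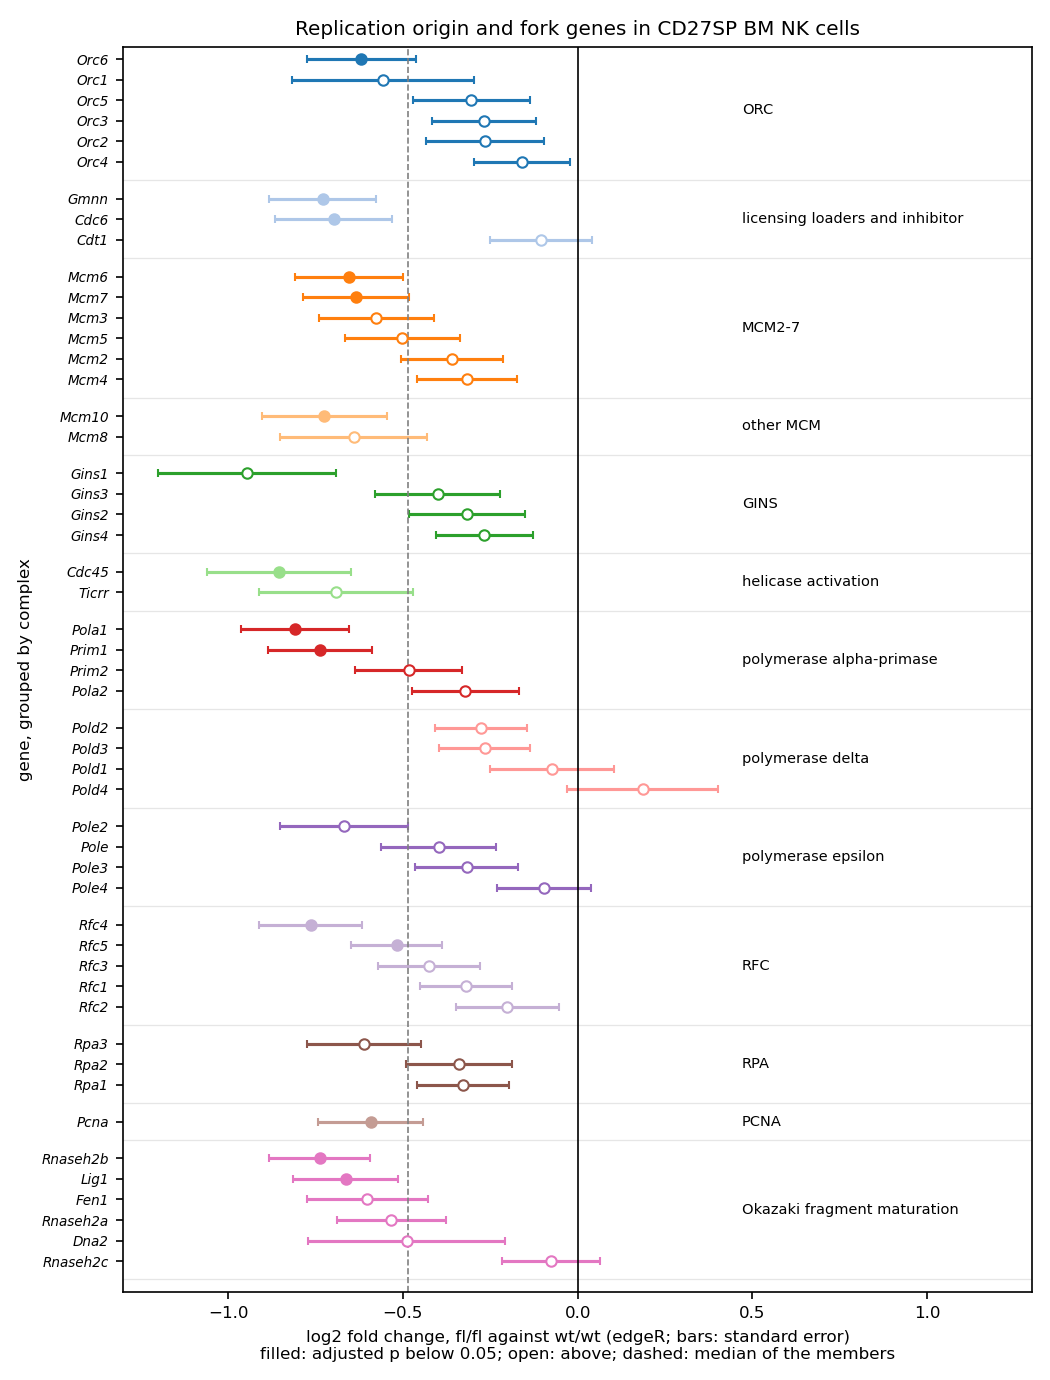
Log2 fold change of each member between Ncr1cre Myc fl/fl and wt/wt libraries (horizontal axis, edgeR, bars are standard errors), with genes on the vertical axis grouped by complex; filled points are below an adjusted p of 0.05. Of the 50 points 49 lie left of 0, and the dashed line marks the median of −0.49.

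Summed over the 50 genes, the level was 6759, 5709.9 and 5236 CPM in the wt/wt libraries and 4168, 4243 and 4415 CPM in the fl/fl libraries. The sum was thus lower in each fl/fl library than in any wt/wt library, at 72.4% of the wt/wt mean. The members took 0.643%, 0.585% and 0.529% of all counts in the wt/wt libraries and 0.424%, 0.426% and 0.438% in the fl/fl libraries. The wt/wt libraries were spread more widely (SD 779.7 CPM) than the fl/fl libraries (SD 127 CPM), and wt/wt library 1 held the highest of the 6 values for 39 of the 50 genes. With that library set aside, every fl/fl value was still below both other wt/wt values for 40 of the 50, compared with 22.3% of all tested genes. By replicate number, the median member was lower by 0.66, 0.43 and 0.28 on the log2 scale. In a sample of sorted cells, fewer cells in S phase and less of these RNAs in each cell cannot be told apart.

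The origin recognition complex had 1 of 6 members below the limit. Orc6, the smallest subunit and the one least tightly held in the complex, had 55.0, 49.6 and 48.3 CPM in the wt/wt libraries and 32.7, 28.8 and 38.5 CPM in the fl/fl libraries (log2 fold change −0.62, standard error 0.16, adjusted p = 0.0417, edgeR). The groups did not overlap, and the fl/fl libraries kept 65.4% of the wt/wt level. Orc4, an ATPase-fold subunit of the core ring, had 76.1, 67.8 and 67.7 CPM in the wt/wt libraries and 60.0, 66.3 and 62.9 CPM in the fl/fl libraries (log2 fold change −0.16, standard error 0.14, adjusted p = 0.56, edgeR). Its genotypes did not overlap, and the difference did not pass. Orc1, an ATPase subunit of the core, had 17.1, 10.8 and 10.9 CPM in the wt/wt libraries and 7.18, 8.38 and 10.2 CPM in the fl/fl libraries, with wt/wt library 1 the highest. Its log2 fold change of −0.56 did not pass (adjusted p = 0.241, edgeR) and was −0.23 without replicate 1. The log2 fold changes of Orc5, Orc3 and Orc2 were −0.30, −0.27 and −0.27, and the median of the 6 was −0.29. Without replicate 1 Orc5, Orc3, Orc2 and Orc4 had −0.13, −0.11, −0.08 and −0.07, and Orc6 had −0.56.

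Among the loaders and their inhibitor the values were uneven. Cdc6, the ATPase that completes the loading platform, had 71.7, 66.9 and 55.8 CPM in the wt/wt libraries and 37.1, 36.6 and 45.9 CPM in the fl/fl libraries (log2 fold change −0.70, standard error 0.17, adjusted p = 0.0342, edgeR). Gmnn, encoding geminin, had 66.1, 56.4 and 59.8 CPM in the wt/wt libraries and 32.9, 34.3 and 42.9 CPM in the fl/fl libraries (log2 fold change −0.73, standard error 0.15, adjusted p = 0.0212, edgeR). The fl/fl libraries kept 61.5% of the wt/wt level of Cdc6 and 60.4% of that of Gmnn, and for both the fl/fl library 4 was the highest of its genotype. Cdt1, the loader that geminin binds, had 45.2, 51.2 and 47.0 CPM in the wt/wt libraries and 39.3, 43.8 and 50.5 CPM in the fl/fl libraries, so the genotypes overlapped (log2 fold change −0.11, standard error 0.15, adjusted p = 0.742, edgeR). Per transcript length, Cdt1 was 37.8 ± 7.89 TPM in wt/wt and 39.5 ± 8.09 TPM in fl/fl cells (SD, n = 3 each), slightly higher in the mean of the fl/fl libraries. The difference between Cdt1 and its inhibitor was not tested.

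The 6 subunits of the MCM2-7 ring, the motor of the helicase, took between 35.9% and 39.9% of the members' summed CPM in every library. All 6 were lower in each fl/fl library than in any wt/wt library, and 2 passed the limit. Mcm6 had 915, 661 and 607 CPM in the wt/wt libraries and 455, 459 and 451 CPM in the fl/fl libraries (log2 fold change −0.65, standard error 0.15, adjusted p = 0.0322, edgeR), with the fl/fl libraries close together. Mcm7 had 335, 272 and 225 CPM in the wt/wt libraries and 177, 172 and 181 CPM in the fl/fl libraries (log2 fold change −0.63, standard error 0.15, adjusted p = 0.0345, edgeR). Mcm3 and Mcm5 had log2 fold changes of −0.58 and −0.50 and did not pass (adjusted p = 0.0639 and 0.0974, edgeR), and Mcm2 had −0.36. Mcm4 had the largest p of the ring, with 344, 346 and 296 CPM in the wt/wt libraries and 239, 268 and 285 CPM in the fl/fl libraries (log2 fold change −0.32, standard error 0.14, adjusted p = 0.228, edgeR). The fl/fl library 4 was close to the wt/wt library 4 for Mcm4, and the ring's median difference was −0.85 and −0.58 in replicates 1 and 2 but −0.11 in replicate 4. Without the 6 ring genes, the median of the other 44 members was −0.46.

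Mcm10 and Mcm8, which share the MCM name but lie outside the ring, stood at 15.5 ± 2.73 and 8.39 ± 1.41 TPM (SD, n = 3 each) in wt/wt cells. Mcm10, a factor that helps to start unwinding, had 39.0, 35.5 and 27.9 CPM in the wt/wt libraries and 21.2, 18.5 and 21.7 CPM in the fl/fl libraries (log2 fold change −0.72, standard error 0.18, adjusted p = 0.0397, edgeR). Mcm8, a helicase subunit that acts with Mcm9 in recombination, had 21.6, 15.9 and 12.8 CPM in the wt/wt libraries and 11.6, 9.27 and 10.7 CPM in the fl/fl libraries and did not pass (log2 fold change −0.64, standard error 0.21, adjusted p = 0.0989, edgeR). The genotypes did not overlap for either gene.

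The 4 GINS subunits, Cdc45 and its recruiter Ticrr all had negative log2 fold changes, and Cdc45 passed the limit. Gins1, the subunit also called Psf1, had the most negative value of all 50 over the 6 libraries, with 19.2, 14.2 and 14.3 CPM in the wt/wt libraries and 6.16, 9.91 and 8.66 CPM in the fl/fl libraries (log2 fold change −0.95, standard error 0.25, adjusted p = 0.0516, edgeR), just above the limit. Without replicate 1 it was −0.62, and Pola1, at −0.87, was the most negative. Gins2, also called Psf2, had 27.3, 34.6 and 30.8 CPM in the wt/wt libraries and 24.2, 23.6 and 26.4 CPM in the fl/fl libraries (log2 fold change −0.32, standard error 0.17, adjusted p = 0.301, edgeR). Gins3 and Gins4 had log2 fold changes of −0.40 and −0.27 and did not pass. Cdc45, the subunit that completes the active helicase, had 78.1, 57.5 and 51.1 CPM in the wt/wt libraries and 29.5, 30.5 and 42.7 CPM in the fl/fl libraries (log2 fold change −0.86, standard error 0.21, adjusted p = 0.0355, edgeR), and fl/fl library 4 was again the highest of its genotype. Ticrr, also known as treslin, which brings Cdc45 to origins under control of cyclin-dependent kinase, had 18.1, 25.5 and 19.9 CPM in the wt/wt libraries and 13.2, 10.8 and 15.3 CPM in the fl/fl libraries (log2 fold change −0.69, standard error 0.22, adjusted p = 0.0914, edgeR). Its fl/fl libraries were at most 15.3 CPM and its wt/wt libraries at least 18.1 CPM.

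In polymerase alpha-primase both catalytic subunits fell. Pola1, the DNA polymerase subunit, had 89.4, 76.0 and 69.1 CPM in the wt/wt libraries and 55.8, 34.1 and 46.0 CPM in the fl/fl libraries (log2 fold change −0.81, standard error 0.16, adjusted p = 0.0144, edgeR). Prim1, the subunit that makes the RNA primer, had 107, 93.8 and 83.1 CPM in the wt/wt libraries and 53.4, 55.1 and 60.9 CPM in the fl/fl libraries (log2 fold change −0.74, standard error 0.15, adjusted p = 0.018, edgeR). The accessory subunits were lower without passing: Prim2 had a log2 fold change of −0.48 (adjusted p = 0.0895, edgeR), and Pola2 had 119, 100.0 and 86.4 CPM in the wt/wt libraries and 75.5, 81.1 and 85.7 CPM in the fl/fl libraries (log2 fold change −0.32, standard error 0.15, adjusted p = 0.258, edgeR). Pola2 was nearly level between fl/fl library 4 and wt/wt library 4. A difference in change between catalytic and accessory subunits was not tested.

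Polymerase delta, the lagging strand enzyme, had the median nearest to 0 of all 13 complexes, −0.17, and no subunit passed. Pold1, the catalytic subunit, had 112, 120.0 and 81.7 CPM in the wt/wt libraries and 95.8, 88.8 and 111 CPM in the fl/fl libraries and overlapped between genotypes (log2 fold change −0.07, standard error 0.18, adjusted p = 0.868, edgeR), and without replicate 2 the log2 fold change was 0.12. Pold2, the subunit that links the catalytic one to the rest, had 80.7, 84.3 and 77.5 CPM in the wt/wt libraries and 65.7, 66.2 and 68.1 CPM in the fl/fl libraries (log2 fold change −0.28, standard error 0.13, adjusted p = 0.252, edgeR). Pold3, which binds PCNA, had a log2 fold change of −0.27. Pold4, the smallest subunit, was the only member with a value above 0, with 8.44, 18.1 and 16.6 CPM in the wt/wt libraries and 13.7, 17.2 and 16.7 CPM in the fl/fl libraries (log2 fold change 0.19, standard error 0.22, adjusted p = 0.687, edgeR). Its direction rested on the shallow wt/wt library 1, which had the lowest of the 6 values, and without that library the log2 fold change was −0.15.

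Polymerase epsilon, the leading strand enzyme, had 4 lower subunits and none past the limit. Pole2, which holds the complex together with the catalytic subunit, came closest with 25.9, 24.4 and 22.9 CPM in the wt/wt libraries and 15.2, 13.6 and 17.4 CPM in the fl/fl libraries (log2 fold change −0.67, standard error 0.18, adjusted p = 0.0563, edgeR), and the genotypes did not overlap. The catalytic subunit Pole had a log2 fold change of −0.40 (adjusted p = 0.189, edgeR). Pole3 and Pole4 are histone-fold subunits. Pole3 had −0.32 and Pole4 had 173, 168 and 168 CPM in the wt/wt libraries and 159, 176 and 142 CPM in the fl/fl libraries (log2 fold change −0.10, standard error 0.14, adjusted p = 0.746, edgeR), with fl/fl library 2 the highest of all 6.

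All 5 subunits of RFC, the clamp loader, had negative log2 fold changes, and 2 passed the limit. Rfc4, a small subunit of the loader ring, had 79.5, 57.4 and 58.9 CPM in the wt/wt libraries and 39.7, 38.5 and 35.8 CPM in the fl/fl libraries (log2 fold change −0.76, standard error 0.15, adjusted p = 0.0147, edgeR). Rfc5, a further small subunit, had 159.8, 146 and 147 CPM in the wt/wt libraries and 104, 107 and 105 CPM in the fl/fl libraries (log2 fold change −0.52, standard error 0.13, adjusted p = 0.0418, edgeR), with the fl/fl libraries close together. Rfc3, another small subunit, had a log2 fold change of −0.43, and Rfc1, the large subunit that is not shared with the alternative loaders, had −0.32. Rfc2, also a small subunit, had 315, 237 and 232 CPM in the wt/wt libraries and 220.2, 232 and 222 CPM in the fl/fl libraries (log2 fold change −0.20, standard error 0.15, adjusted p = 0.474, edgeR), and fl/fl library 2 lay above wt/wt library 4. Pcna, the sliding clamp itself, had 417, 312 and 326 CPM in the wt/wt libraries and 218, 234 and 242 CPM in the fl/fl libraries (log2 fold change −0.59, standard error 0.15, adjusted p = 0.0431, edgeR). All 3 fl/fl libraries lay below the wt/wt minimum, at 65.8% of the wt/wt level in the mean.

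RPA, the single-strand binding protein, was lower in each of its 3 subunits, and none passed. Rpa3, the small subunit, had 53.3, 48.4 and 57.0 CPM in the wt/wt libraries and 33.3, 40.3 and 30.7 CPM in the fl/fl libraries (log2 fold change −0.61, standard error 0.16, adjusted p = 0.0511, edgeR). Rpa2, the subunit phosphorylated under replication stress, had 136, 115 and 117 CPM in the wt/wt libraries and 85.1, 94.0 and 112 CPM in the fl/fl libraries (log2 fold change −0.34, standard error 0.15, adjusted p = 0.221, edgeR). In Rpa2 the fl/fl library 4 came close to the lowest wt/wt library. Rpa1, the large DNA-binding subunit, had a log2 fold change of −0.33 (adjusted p = 0.174, edgeR).

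The 6 genes that remove primers and join Okazaki fragments all had negative log2 fold changes, and 2 passed the limit. Lig1, the ligase that seals the fragments, had 132, 112 and 101 CPM in the wt/wt libraries and 72.1, 64.8 and 80.0 CPM in the fl/fl libraries (log2 fold change −0.66, standard error 0.15, adjusted p = 0.0279, edgeR). Rnaseh2b, a structural subunit of the enzyme that removes ribonucleotides from DNA, had 63.0, 48.4 and 53.3 CPM in the wt/wt libraries and 34.4, 32.5 and 31.2 CPM in the fl/fl libraries (log2 fold change −0.74, standard error 0.15, adjusted p = 0.0161, edgeR). Both genes had all fl/fl values below all wt/wt values. The catalytic subunit Rnaseh2a had −0.53 and did not pass (adjusted p = 0.0691, edgeR), and the third subunit, Rnaseh2c, had 64.7, 50.9 and 55.8 CPM in the wt/wt libraries and 61.9, 53.8 and 47.0 CPM in the fl/fl libraries (log2 fold change −0.08, standard error 0.14, adjusted p = 0.817, edgeR), overlapping between genotypes. Fen1, the flap nuclease, had a log2 fold change of −0.60 (adjusted p = 0.0669, edgeR) and stood at 289 CPM in wt/wt library 1 against 153 and 154 CPM in the other wt/wt libraries. Dna2, a nuclease for long flaps, had −0.49. Without replicate 1 the log2 fold changes of Fen1 and Dna2 were −0.35 and −0.27.

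**Figure D2:**
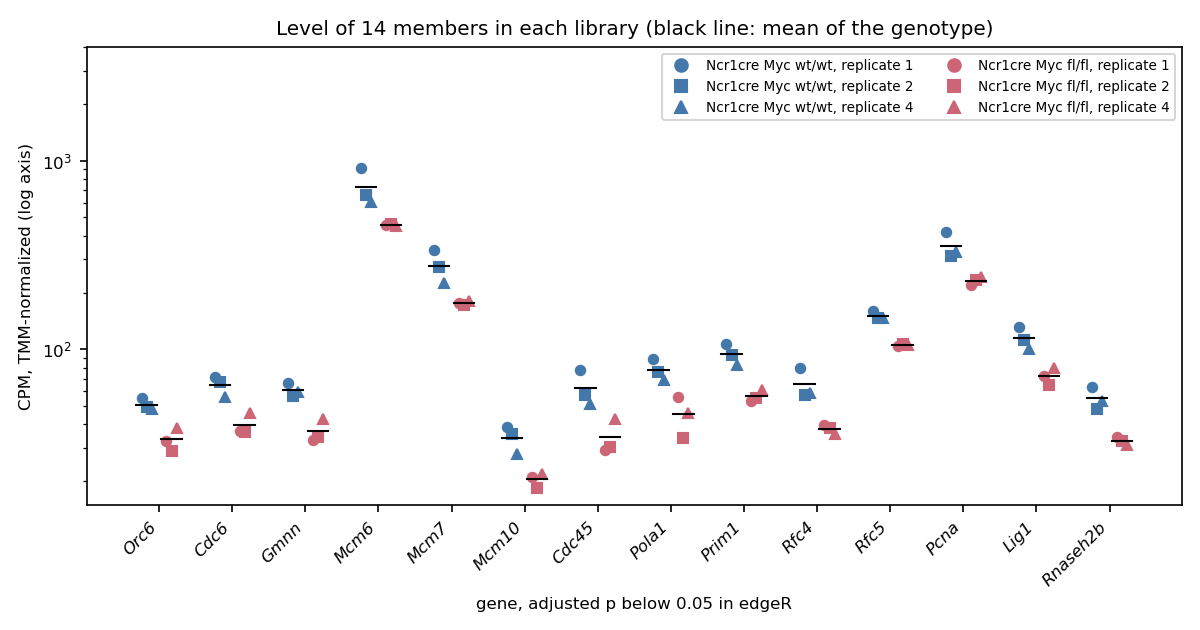
CPM after TMM scaling (vertical axis, logarithmic) of the 14 members below an adjusted p of 0.05 (horizontal axis) in each library, with colour for genotype, symbol shape for replicate number and a black line at the mean of 3. In every one of the 14 all fl/fl points lie below all wt/wt points, and wt/wt replicate 1 is the highest point in each.

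Levels between genes were compared per transcript length, as TPM (transcripts per Mio). In wt/wt cells the members ran from 5.10 TPM for Dna2 to 432 TPM for Rfc2, with a median of 64.1, and the median in fl/fl cells was 52.8. Rfc2 (432 ± 97.2 TPM, SD, n = 3), Pcna (377 ± 53.3) and Mcm6 (348 ± 62.0) stood highest in wt/wt cells and overlapped one another within their SDs. Pole4 (198 ± 11.2) and Mcm5 (195 ± 27.3) followed and did not differ beyond their spread. At the low end were Dna2, Mcm8 (8.39 ± 1.41), Orc1 (9.30 ± 3.32) and Ticrr (9.95 ± 2.48), whose wt/wt ranges overlap for the last 3. Subunits of 1 complex were not level with each other: in polymerase epsilon Pole4 was at 198 TPM and the catalytic Pole at 11.0 TPM, and in the MCM ring Mcm6 was at 348 TPM and Mcm2 at 117 TPM. On the TPM scale 46 members had a lower mean in fl/fl cells and 4 a higher one, Cdt1, Pold4, Pole4 and Rnaseh2c, and for 34 every fl/fl value was below every wt/wt value, compared with 10.9% of all tested genes on that scale. Rnaseh2c differed between scales, with 99.6, 149.6 and 159.9 TPM in the wt/wt libraries and 194, 177 and 153 TPM in the fl/fl libraries, and its log2 fold change was 0.30 with offsets from effective lengths and 0.01 without wt/wt library 1.

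**Figure D3:**
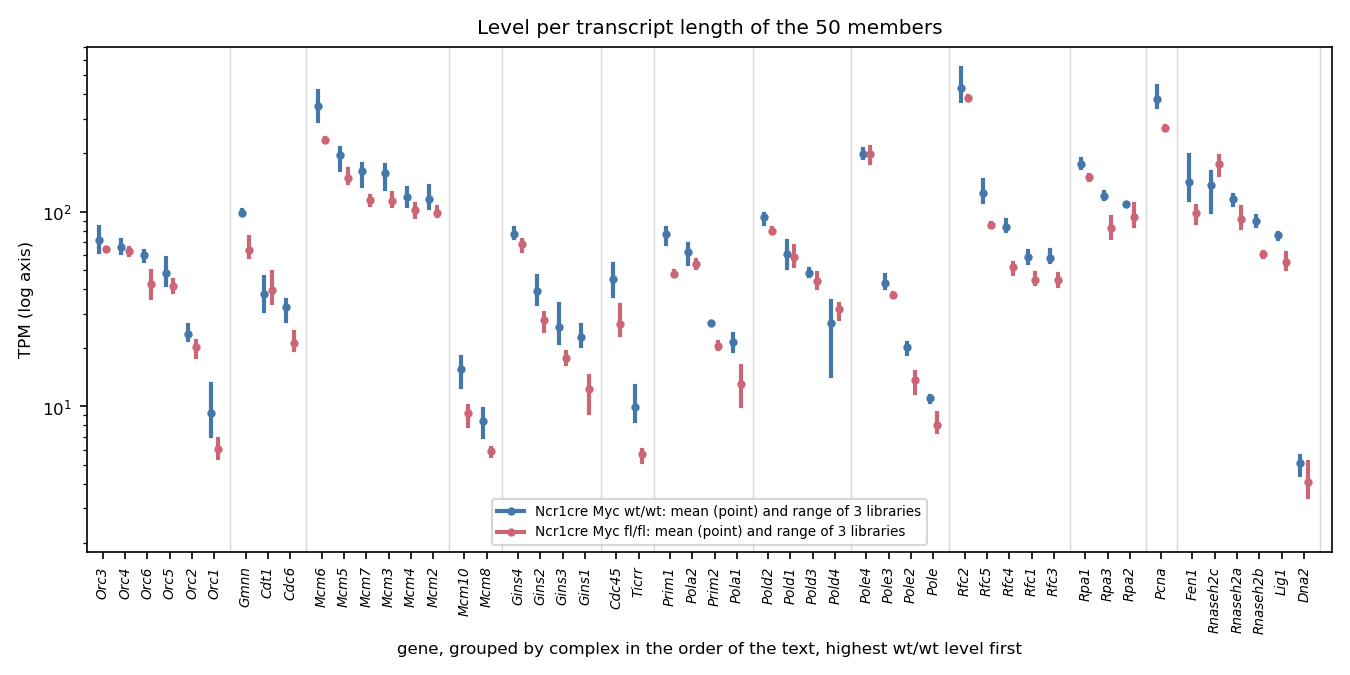
TPM of each member (vertical axis, logarithmic) by genotype, with genes on the horizontal axis in the order of the complexes and the highest wt/wt level first; points are means and lines the range of 3 libraries. Mcm6, Rfc2 and Pcna stand highest, Dna2 lowest, and the fl/fl mean is below the wt/wt mean for 46 of the 50 genes.

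The sequencing kit is not stated to keep strand, and exons of 16 members share over 5% of their length with another gene in GENCODE M21. The largest shares were 78.8% for Fen1, whose partner on the opposite strand is Gm10143, and 67.3% for Gins2, whose partner is Gse1. Orc2 shared 29.8% with Nif3l1 and Rnaseh2c 24.8% with Kat5, each on the opposite strand, and Pold4 24.6% with AC109138.7 on its own. Among the 14 genes below the limit the largest shares were 12.7% in Rfc4, with Eif4a2, and 10.7% in Rfc5, with Wsb2. Pcna has 2 annotated pseudogenes, Pcna-ps1 and Pcna-ps2, between which and Pcna the quantifier could divide reads.

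Other genes of replication and of the cell cycle were measured for comparison. Of 30 further replication factors, 7 were lower at an adjusted p below 0.05 and 0 higher, with a median log2 fold change of −0.31. Of all tested genes 3.38% were lower at that limit. Clspn, the claspin adaptor of the fork, had 26.2, 21.6 and 22.2 CPM in the wt/wt libraries and 10.7, 9.07 and 10.6 CPM in the fl/fl libraries (log2 fold change −1.20, standard error 0.19, adjusted p = 0.00616, edgeR), a larger change than that of any of the 50. Pclaf, which binds PCNA, was at 218, 225 and 229 CPM in the wt/wt libraries and 132, 108 and 142 CPM in the fl/fl libraries (log2 fold change −0.82, standard error 0.14, adjusted p = 0.00879, edgeR). Both also passed the stricter limit in edgeR. Clspn passed it by the largest adjusted p of the 3 methods as well, and Pclaf did not pass in limma-trend (adjusted p = 0.0112). The list of 10 dNTP supply genes also holds Samhd1, whose product breaks dNTPs down. Of the 10, 9 had negative log2 fold changes and 6 were lower at an adjusted p below 0.05, with a median of −0.66. The smallest p-values were those of Dut, which removes dUTP (log2 fold change −0.85, standard error 0.15, adjusted p = 0.00907, edgeR), and Tyms, thymidylate synthase (log2 fold change −0.74, standard error 0.14, adjusted p = 0.0131, edgeR).

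A list of 17 genes held the E2F and RB families and also Ccne1, Ccne2, Cdk2 and Cdc25a, which belong to neither. EdgeR placed 1 lower and 1 higher past the limit of 0.05. The fit without the block placed 3 lower, among them Ccne2 and Cdk2, and 1 higher. DESeq2 placed 6 lower, among them Ccne1, Ccne2 and Cdk2, and 1 higher. Tfdp1, the dimer partner of the E2Fs, fell (log2 fold change −0.52, standard error 0.14, adjusted p = 0.0473, edgeR). Rbl2, the p130 pocket protein found with E2F4 in resting cells, was higher, with 382, 346 and 315 CPM in the wt/wt libraries and 528, 479 and 461 CPM in the fl/fl libraries (log2 fold change 0.50, standard error 0.13, adjusted p = 0.0468, edgeR). With 1 library left out, in fits without the block, Tfdp1 passed in 1 of 6 and Rbl2 in 2 of 6. E2f1, E2f2, E2f7 and E2f8, whose products act around G1/S and in S phase, had log2 fold changes of −0.35, −0.82, −0.81 and −0.42 and did not pass in edgeR, and they were named after their values were seen. DESeq2 placed E2f2 and E2f7 below the limit (adjusted p = 0.0239 and 0.0238), and E2f7 also passed without fl/fl library 4 (adjusted p = 0.0461, edgeR). The genotypes overlapped for E2f1, whose value was −0.68 without fl/fl library 4. Of 9 replication checkpoint genes 1 was lower, and 2 in DESeq2. The former was Chek1, the kinase that answers to stalled forks (log2 fold change −0.94, standard error 0.20, adjusted p = 0.0228, edgeR), which did not pass without fl/fl library 1, and the next smallest p was that of Rad1, a subunit of the checkpoint clamp (log2 fold change −0.54, standard error 0.17, adjusted p = 0.0908, edgeR).

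Of 40 genes of G2/M and mitosis, 25 were lower at an adjusted p below 0.05 in edgeR and 0 were higher. The stricter limit was passed by 8 of them in edgeR. Of these 8, Ccnb2 and Cenpe did not pass it in limma-trend (adjusted p = 0.0106 and 0.0133). Without the block 28 of the 40 were lower and 1, Pttg1, was higher (adjusted p = 0.0499, edgeR). Pttg1 had 36.1, 31.6 and 38.3 CPM in the wt/wt libraries and 49.2, 53.2 and 45.3 CPM in the fl/fl libraries. The median log2 fold change of the 40 genes was −0.73 against −0.49 in the replication members. Mki67, the proliferation marker Ki-67, had 286, 197 and 191 CPM in the wt/wt libraries and 101, 72.9 and 107 CPM in the fl/fl libraries (log2 fold change −1.26, standard error 0.16, adjusted p = 0.00348, edgeR), and Nusap1, a protein of the mitotic spindle, had a log2 fold change of −0.97 (adjusted p = 0.00537, edgeR). In each same-numbered pair the median was more negative for the G2/M genes, at −0.88, −1.08 and −0.44, than for the replication members. The ratio of summed CPM, members over G2/M genes, was 1.49, 1.43 and 1.41 in the wt/wt libraries and 1.72, 2.05 and 1.59 in the fl/fl libraries. Every fl/fl ratio was above every wt/wt ratio, as a description of the same 6 libraries without a test.

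**Figure D4:**
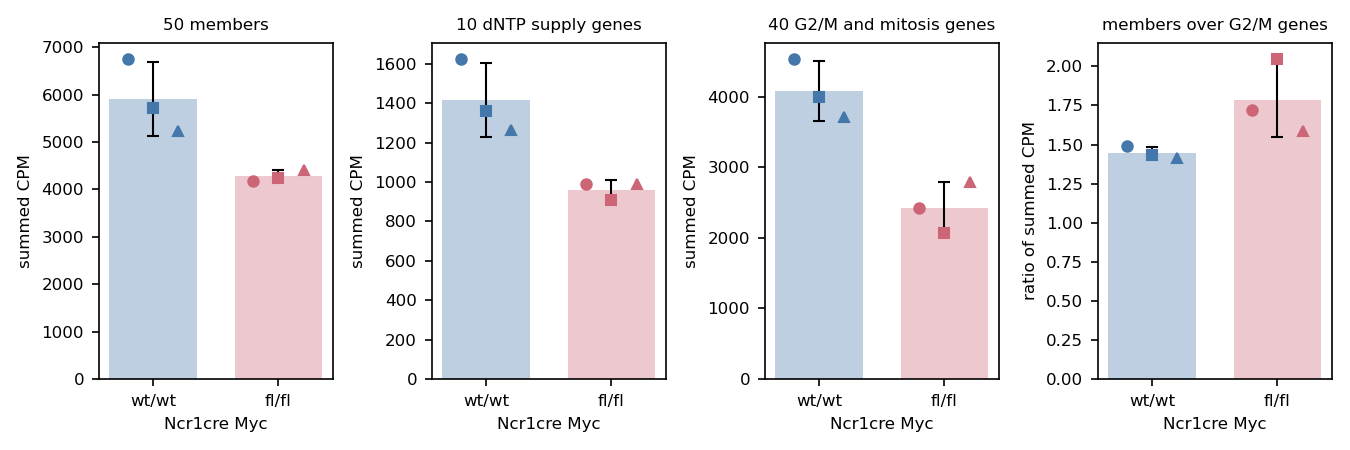
Summed CPM (vertical axes, from 0) of the 50 members, of 10 dNTP supply genes and of 40 G2/M and mitosis genes, and the ratio of the first to the last, in Ncr1cre Myc wt/wt and fl/fl libraries; bars are means, error bars SD of 3, and circles, squares and triangles replicates 1, 2 and 4. The 3 sums are lower in each fl/fl library than in any wt/wt library, and the ratio is higher.

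Replicate 4 showed the smallest median difference of the 3 pairs in 10 of the 13 complexes. Its median was −0.28 for the loaders and their inhibitor, −0.31 for Cdc45 and Ticrr, −0.43 for polymerase alpha-primase, −0.35 for RFC and −0.30 for the Okazaki genes. In replicate 1 the same medians were −0.94, −0.91, −0.66, −0.58 and −0.86. In the other 3 complexes replicate 2 was nearest to 0, with −0.66, −0.10 and −0.12 in replicates 1, 2 and 4 for ORC, −0.54, −0.29 and −0.39 for GINS and −0.93, −0.41 and −0.43 for Pcna. Of the 50 members 49, 47 and 46 were lower in the pairs of replicates 1, 2 and 4, and 43 in all 3, as were 3277 of the 15474 tested genes. The fl/fl library 4 also had the lowest summed basophil and mast cell markers of its genotype (122 CPM, against 277 and 334) and the highest neutrophil and progenitor markers (934 CPM, against 606 and 582), and the part of these in the smaller difference was not tested.

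**Figure D5:**
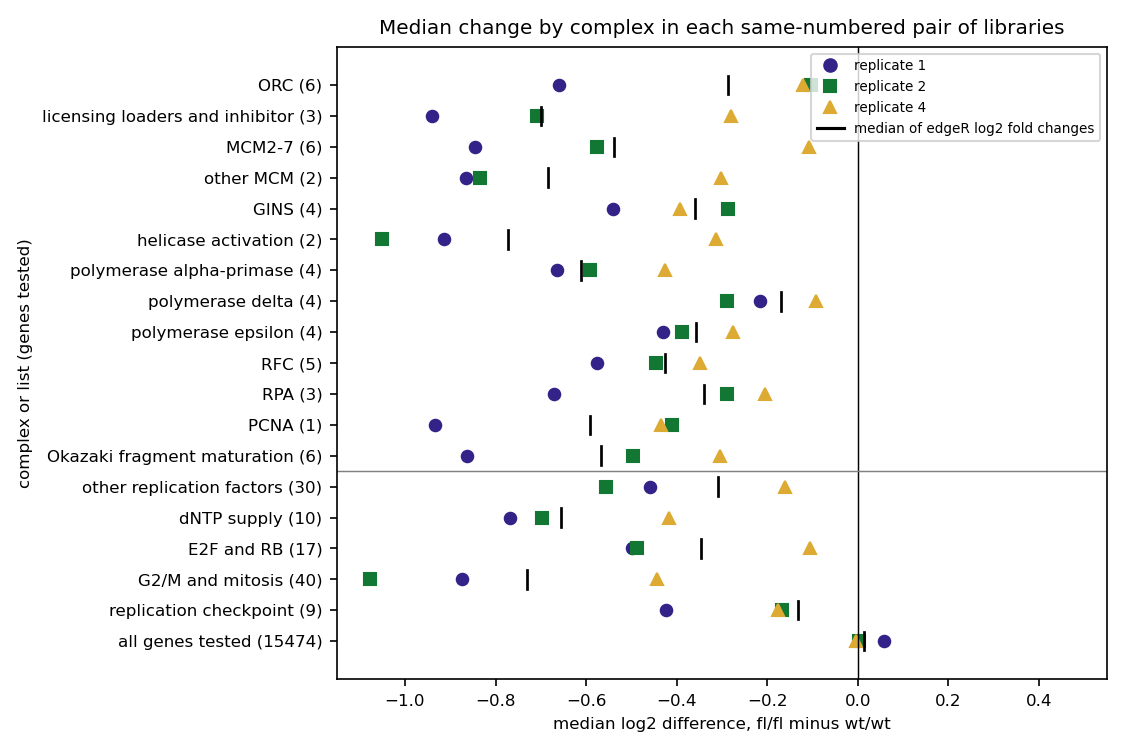
Median log2 difference between fl/fl and wt/wt libraries (horizontal axis) for each complex and comparison list (vertical axis, number of genes tested in brackets), with 1 symbol for each replicate number and a black line at the median of the edgeR log2 fold changes. The complexes lie left of 0 in all 3 pairs, replicate 4 is often nearest to 0, and all tested genes lie near 0.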

How the data were processed

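RNA was sequenced from sorted CD27SP NK cells by a full-length low-input kit with PolyA selection. The authors deposited, for each library and mouse transcript, an estimated count, which is not normalized, a TPM value and an effective length. The tables have kallisto's columns and mouse identifiers, whereas the submitters' processing notes name Salmon and GRCh38. The version is not given in the sources used here.

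Counts of transcripts were added up within each symbol of GENCODE M21, which held 100239 of 100583 transcripts (0.129% to 0.169% of counts were unmatched), and rounded. Genes were filtered by filterByExpr (15474 kept), scaled by TMM and tested by edgeR 4.0.16 (quasi-likelihood, R 4.3.3). Replicate numbers entered as a block, since the paper calls its analyses paired. Benjamini-Hochberg adjustment covered all genes tested. CPM values are TMM-normalized, and differences within pairs used a pseudocount of 0.5 CPM. The limits were an adjusted p below 0.05 and the study's limit of 0.01 with a log2 fold change of 0.5. DESeq2 1.42.0 and limma 3.58.1 were alternatives. Replicates differed by more than counting noise (chi-square per degree of freedom 40.1 to 102), so they are distinct libraries.

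The members, lists and alternatives were chosen with earlier results of these data known. Values in every library are given for members below an adjusted p of 0.05, for the smallest and the largest p in each complex and for log2 fold changes above 0. The 2 smallest p-values of each comparison list and the 2 highest TPM of each marker list are named. Promoter windows came from RefSeq (GRCm38.p6).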

Additional observations from a re-analysis of the deposited data

How the results depend on the processing

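Under the 19 alternatives the median log2 fold change of the members kept its direction and moved by less than the spread between pairs. It ran from −0.54 to −0.35 with replicates or single libraries left out. With those left out, between 1 and 15 members were below an adjusted p of 0.05, against 1.59% to 3.87% of all tested genes. The study's limit was passed by 0 or 1 member, against 0.0378% to 0.814% of all tested genes. DESeq2 placed 24 members below 0.05 and 16 past the study's limit (5.74% and 3.47% of all tested genes were lower by these), limma-trend 13 and 0 (2.97% and 0.504%), and the largest adjusted p of the 3 methods 13 and 0 (2.96% and 0.504%). Without a filter on low counts the numbers were 20 and 10 (3.61% and 1.83%), and with offsets from effective lengths 4 and 0 (1.8% and 0.0517%). The cause of these differences was not tested. With the other scalings and with at least 10 counts in every library, between 12 and 16 members were below 0.05, against 2.73% to 4.83% of all tested genes.

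Without the replicate block, 20 members were lower below 0.05, against 4.47% of all tested genes. In that fit 1 member, Prim1, passed the study's limit, against 1.19% of all tested genes. Of the marker lists, S1pr5, Ngp, S100a8, Ly6c2 and H2-Aa ceased to pass 0.05. Over 12128 genes, the deviations of same-numbered libraries from their genotype means correlated at 0.00161, −0.0895 and 0.103 for replicates 1, 2 and 4, above 0.1 in replicate 4 but not in replicates 1 and 2, so a pairing by number was not seen in the data. Over single members and alternatives, 835 of the calls stayed on their side of an adjusted p of 0.05, 39 came to pass and 76 ceased to pass, and none that passed changed direction. The sign changed 8 times in all, among Pold1, Pold4 and Rnaseh2c, which never passed. Depth limits wt/wt library 1 most, where the lowest member count was 65 against 362 or more in the other libraries.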
